A study of Mus musculus with 16 samples.

Results

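The genes described here are 7 markers of type 2 activation, the state that interleukin-4 and interleukin-13 induce in myeloid cells: Retnla, Chil3, Mrc1, Mgl2, Clec10a, Cd209a and Il4ra. They were listed by symbol, and all 7 of the 7 were found among 19938 genes with a probe set of their own. Where several probe sets carry a symbol, the brightest over all arrays was to be taken, but each of the 7 genes had 1 probe set, so measured values made no choice among them. The values come from 16 arrays of CD11b+ dendritic cells (myeloid cells sorted as CD11c+, MHC2+ and CD11b+), 8 labelled tumoral and 8 labelled peritumoral. Tumoral cells came from lung tumours and peritumoral cells from the lung tissue beside them. All mice were C57BL/6 hosts given Lewis lung carcinoma (LLC) cells, a syngeneic mouse lung tumour line, into the airways, so both groups lived in tumour-bearing lungs and no tumour-free lung is among them. The labels give no age, sex or treatment, and do not say whether an array holds 1 animal or a pool. Each p-value therefore sets a difference only against the scatter of these samples, and that scatter may be technical.

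Interleukin-4 and interleukin-13 bind receptors that share the chain encoded by Il4ra, whose Janus kinases activate the transcription factor STAT6. In mouse macrophages and dendritic cells STAT6 then raises a set of secreted proteins and of sugar-binding surface receptors. Retnla encodes RELM-alpha, a small secreted protein also called FIZZ1, and Chil3 encodes the chitinase-like protein Ym1, which alveolar macrophages also make without an allergen. Mrc1 encodes the mannose receptor CD206. Mgl2 and Clec10a encode the galactose-type lectins CD301b and CD301a, and Cd209a encodes a mouse relative of the human lectin DC-SIGN. The lectins are used as markers of CD11b+ dendritic cells as well as of type 2 activation.

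The promoters of Retnla, Chil3 and Cd209a are shown because Retnla and Cd209a follow each other most closely across the arrays while Chil3, the other secreted protein, follows its own order. The sequences are from RefSeq on GRCm38.p6, from 250 bases before to 50 bases after the annotated start, 5′ to 3′ on the gene's own strand. RefSeq entries matched 6 of the 7 genes, Clec10a being the exception. Capitals mark matches on either strand to the STAT6 motif TTCNNNNGAA, the related STAT motif TTCNNNGAA, or GGAANNGAAA, a composite motif of IRF factors with PU.1. The Retnla promoter lies at chr16:48842359-48842658 (plus strand), that of Chil3 at chr3:106167515-106167814 (minus strand) and that of Cd209a at chr8:3748935-3749234 (minus strand).
Retnla: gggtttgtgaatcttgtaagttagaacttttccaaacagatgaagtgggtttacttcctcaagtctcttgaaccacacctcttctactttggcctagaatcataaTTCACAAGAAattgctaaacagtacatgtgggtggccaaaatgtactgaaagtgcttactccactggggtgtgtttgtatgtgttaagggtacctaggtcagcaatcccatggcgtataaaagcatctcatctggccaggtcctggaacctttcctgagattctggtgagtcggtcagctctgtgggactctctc
Chil3: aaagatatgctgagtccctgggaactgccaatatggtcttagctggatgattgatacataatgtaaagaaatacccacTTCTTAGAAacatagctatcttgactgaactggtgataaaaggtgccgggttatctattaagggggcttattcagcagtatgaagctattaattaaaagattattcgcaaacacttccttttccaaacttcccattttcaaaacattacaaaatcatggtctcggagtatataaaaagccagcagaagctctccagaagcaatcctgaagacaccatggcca
Cd209a: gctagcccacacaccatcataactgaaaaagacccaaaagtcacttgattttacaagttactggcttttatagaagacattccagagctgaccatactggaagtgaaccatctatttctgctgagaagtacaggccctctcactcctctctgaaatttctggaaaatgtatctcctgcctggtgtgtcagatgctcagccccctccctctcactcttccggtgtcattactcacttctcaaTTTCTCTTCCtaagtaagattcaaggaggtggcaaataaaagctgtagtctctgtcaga

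The Retnla window holds TTCACAAGAA, a match to TTCNNNNGAA that begins 145 bases before the start, and 6.95% of 32851 promoter windows hold such a match. The Chil3 window holds TTCTTAGAA, a match to TTCNNNGAA that begins 172 bases before the start, against 8.3% of all windows. In Cd209a the marked letters TTTCTCTTCC begin 9 bases before the start and are the reverse-strand form of GGAANNGAAA, which 2.72% of windows hold. The windows of Mrc1, Mgl2 and Il4ra hold none of these letters. A match is a description of the sequence and was not tested for binding.

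Before the results, the arrays themselves need a description. The genes of the sorting markers were bright on all arrays, with Itgax (CD11c) between 11.51 and 11.72 in tumoral and between 11.07 and 11.79 in peritumoral arrays, and H2-Ab1 (MHC class II) between 13.10 and 13.38 in tumoral and between 13.06 and 13.38 in peritumoral arrays. Itgam (CD11b) lay between 11.00 and 11.62 in tumoral and between 10.18 and 11.80 in peritumoral arrays, lowest in peritumoral 4. All values are log2 expression. Peritumoral 4 stood apart, with the highest mean of the lists for alveolar macrophages (8.97, against 7.76 or less elsewhere), neutrophils (8.10), lung epithelium (10.42), endothelium (10.95), fibroblasts (9.95), T cells (8.20), B cells (9.35) and NK cells (6.64). Where leaving it out moved a difference given below by over 1.5 times, both values are given.

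A second feature runs through many genes and is not in the labels. In the order in which the arrays were deposited, peritumoral 1 to 8 followed by tumoral 1 to 8, the arrays at positions 3, 6, 9, 12 and 15 often share the low or the high end of a gene. They are tumoral 1, 4 and 7 and peritumoral 3 and 6. Of all 19938 genes, 718 (3.6%) had their 5 lowest values on exactly these 5 arrays, and 1668 (8.37%) had their 5 highest values there. The positions were singled out after the values were seen, no label marks them, and they are used here only to describe which arrays are high or low. Itgam, a gene of the sort, had its 5 highest values there, from 11.53 to 11.80, against 10.18 to 11.50 elsewhere. Whether the array titles match the columns of the value table could not be checked from the labels. The titles were taken as given, and every difference between tumoral and peritumoral arrays holds only if they do match.

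By standard deviation, Retnla varied more from array to array than any other gene measured, barely ahead of Arg1. Its extremes lay within each label rather than between the labels. Tumoral 1 to 8 measured 8.44, 12.07, 11.35, 7.81, 12.00, 11.51, 9.33 and 12.23. Peritumoral 1 to 8 measured 11.74, 10.71, 6.71, 10.97, 9.64, 7.50, 12.30 and 11.45. Tumoral 1, 4 and 7 and peritumoral 3 and 6 were low, the other 11 arrays were higher, and the labels overlapped over almost the whole span. The lowest and the highest array were 48.3-fold apart, a span exceeded by the lung epithelial genes Sftpc (56.4-fold) and Scgb1a1 (56.1-fold). The standard deviation of Retnla, 1.86 over the 16 arrays, ranked 1 of 19938 genes. The 5 low arrays, from 6.71 to 9.33, were those at positions 3, 6, 9, 12 and 15, and the remaining arrays ran from 9.64 to 12.30. Retnla averaged 10.59 ± 1.78 in tumoral and 10.13 ± 2.03 in peritumoral arrays (SD, n = 8 each). The difference of 0.46 (SE 0.86) was smaller than either SD (limma, adjusted p = 0.875). Leaving out peritumoral 3, the lowest array, moved it to -0.02. Of the variation of Retnla, 1.66% lay between the labels.

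**Figure D1:**
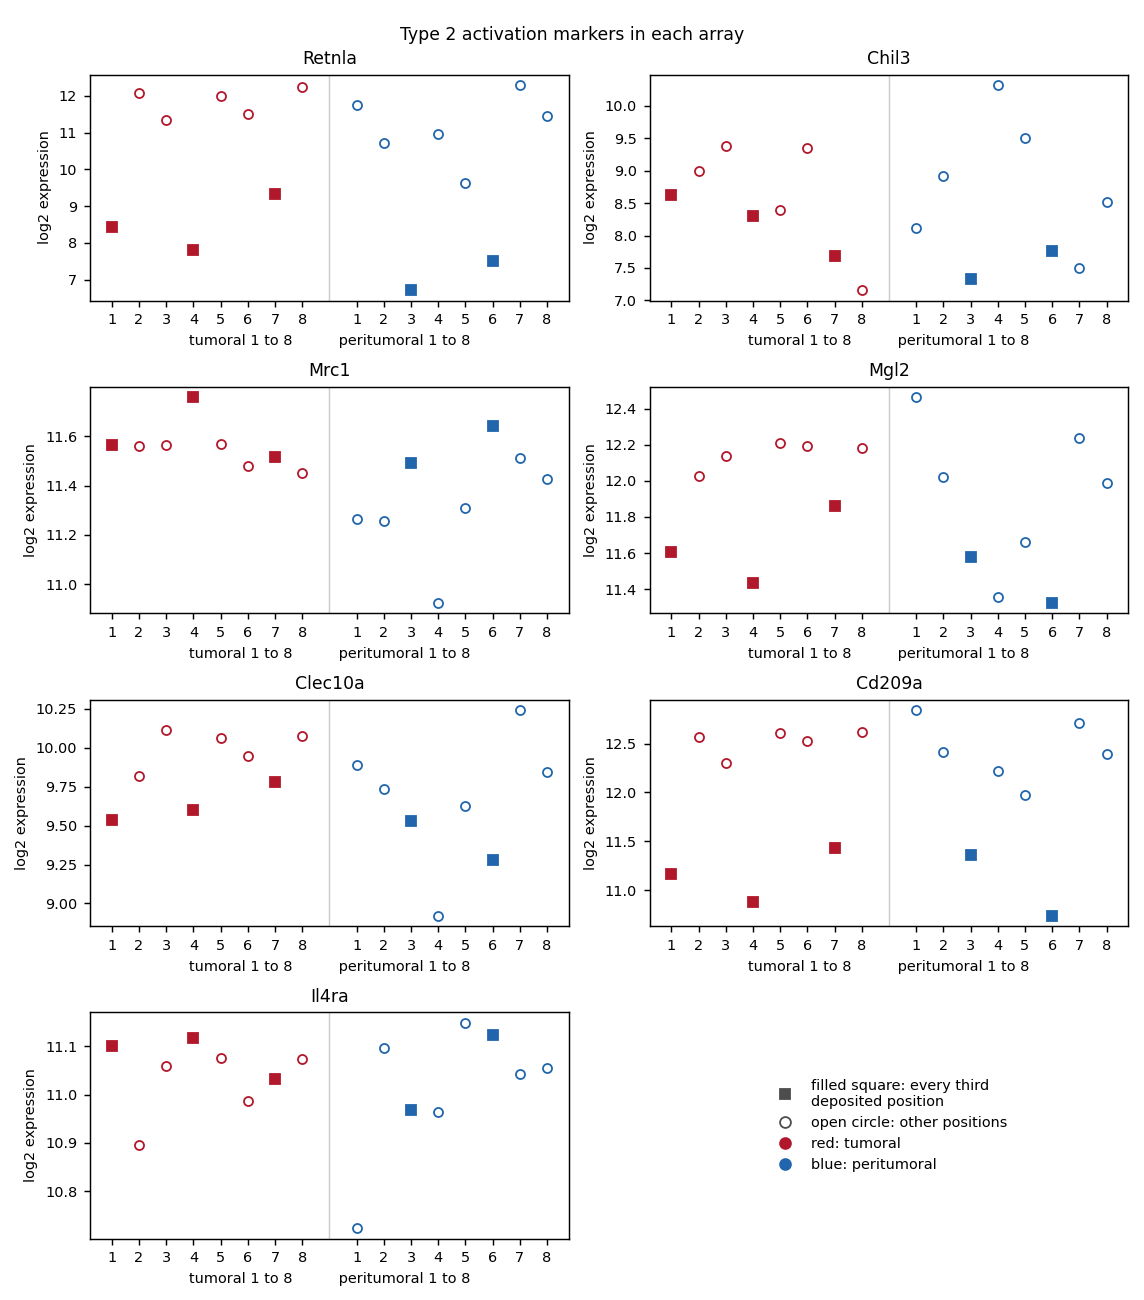
Log2 expression of each of the 7 genes (y axis) in tumoral arrays 1 to 8 (red, left) and peritumoral arrays 1 to 8 (blue, right), with filled squares for deposited positions 3, 6, 9, 12 and 15. The squares are the 5 lowest points for Retnla and Cd209a in both labels, whereas Il4ra and Mrc1 span 0.43 and 0.83 in all.

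Chil3 had another order of arrays. Tumoral 1 to 8 measured 8.62, 9.003, 9.39, 8.30, 8.39, 9.35, 7.69 and 7.16, and peritumoral 1 to 8 measured 8.12, 8.92, 7.32, 10.33, 9.51, 7.76, 7.50 and 8.52. The highest values were in peritumoral 4 and 5, the lowest in tumoral 8 and peritumoral 3, and the labels overlapped. Chil3 averaged 8.49 ± 0.78 in tumoral and 8.50 ± 1.04 in peritumoral arrays (SD, n = 8 each), a difference of -0.01 (limma, adjusted p = 0.995). Without peritumoral 4 the difference was 0.25 (limma, adjusted p = 0.880). Arrays 9.002-fold apart at the extremes placed Chil3 at rank 181 of 19938 for standard deviation. The alveolar macrophage list, without Chil3, was higher in tumoral than in peritumoral arrays for 0 of its 7 genes, beside 41.7% of all genes. Without peritumoral 4, Pparg and Fabp1 of that list were higher in tumoral arrays, by 0.0037 and 0.11. The list mean ran from 7.16 to 7.66 in tumoral and from 7.32 to 8.97 in peritumoral arrays, with its highest value in peritumoral 4 as for Chil3. The neutrophil list, with all 6 genes measured, ran from 5.77 to 6.84 in tumoral and from 5.95 to 8.10 in peritumoral arrays, and was highest in peritumoral 4 (8.10) and 5 (7.84). The part of these cells in the Chil3 values was not tested. In such bulk samples, fewer cells of a type and less RNA per cell cannot be told apart.

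Among the lectin receptors Cd209a came closest to Retnla. Tumoral 1 to 8 measured 11.16, 12.56, 12.30, 10.88, 12.61, 12.52, 11.43 and 12.62 for Cd209a. Peritumoral 1 to 8 measured 12.84, 12.41, 11.36, 12.22, 11.97, 10.74, 12.71 and 12.40. The same 5 arrays were low as for Retnla, from 10.74 to 11.43, and the other 11 lay between 11.97 and 12.84. Its span of 2.11 was narrower than the 5.59 of Retnla. Over the 16 arrays the pair had a Pearson r of 0.94 and a Spearman rho of 0.93, and r was 0.97 without the 2 arrays farthest from the median of Retnla. The same 5 arrays were low for both genes, so these coefficients mainly restate that separation and are a description. The other 11 arrays were not level either, as given for Arg1 below. Cd209a averaged 12.01 ± 0.73 in tumoral and 12.08 ± 0.71 in peritumoral arrays (SD, n = 8 each), a difference of -0.07 (limma, adjusted p = 0.957).

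The galactose-type lectins Mgl2 and Clec10a, which are neighbours in sequence and in the genome, kept much of this order over a smaller range. Mgl2 measured 11.61, 12.03, 12.14, 11.43, 12.21, 12.19, 11.86 and 12.18 in tumoral 1 to 8, and 12.46, 12.02, 11.58, 11.36, 11.66, 11.32, 12.24 and 11.99 in peritumoral 1 to 8. Clec10a measured 9.53, 9.82, 10.11, 9.60, 10.06, 9.95, 9.78 and 10.08 in tumoral 1 to 8, and 9.89, 9.73, 9.53, 8.92, 9.63, 9.28, 10.24 and 9.84 in peritumoral 1 to 8. For each gene, 4 of the 5 lowest arrays were at the 5 positions named above. The exception was peritumoral 4 for both, at 11.36 for Mgl2 and at 8.92, the lowest value of all, for Clec10a. Mgl2 averaged 11.96 ± 0.30 in tumoral and 11.83 ± 0.41 in peritumoral arrays, a difference of 0.13 (SE 0.17) that was 0.06 without peritumoral 4. Clec10a averaged 9.87 ± 0.22 in tumoral and 9.63 ± 0.40 in peritumoral arrays (SD, n = 8 each), a difference of 0.23 (SE 0.15) that was 0.13 without peritumoral 4. Neither passed the test (limma, adjusted p = 0.798 and 0.558). Mgl2 and Clec10a had an r of 0.87 with each other over 16 arrays. As close relatives they may share target sequence on the array, and whether each probe set reads its own gene alone was not tested.

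Mrc1 went another way and was the member whose labels were furthest apart relative to the spread. It measured 11.56, 11.56, 11.57, 11.76, 11.57, 11.48, 11.52 and 11.45 in tumoral 1 to 8. It measured 11.26, 11.26, 11.49, 10.92, 11.31, 11.64, 11.51 and 11.43 in peritumoral 1 to 8. All 8 tumoral arrays were above the peritumoral median of 11.37, but the labels overlapped, since peritumoral 6 exceeded all tumoral arrays but tumoral 4. Mrc1 averaged 11.56 ± 0.09 in tumoral and 11.35 ± 0.22 in peritumoral arrays (SD, n = 8 each). The difference of 0.20 (95% interval 0.03 to 0.38) did not pass over all genes (limma, adjusted p = 0.370, unadjusted p = 0.0249). An exact permutation test over all 12870 assignments of the labels, two-sided, was run on each of the 7 members. It gave Mrc1 an unadjusted p of 0.0197, the smallest of the 7, and the others 0.174 (Clec10a) or more. Without peritumoral 4 the difference of Mrc1 was 0.14. The array lowest for Mrc1, peritumoral 4, was also the one with the highest lists of lung and lymphoid cells given above. The T cell list ran from 6.14 to 6.76 in tumoral and from 6.37 to 8.20 in peritumoral arrays, and its r with Mrc1 over the 16 arrays was -0.94. The other lung, granulocyte and lymphoid lists had r with Mrc1 from -0.81 (basophil and mast cell) to -0.64 (fibroblast). The sorting marker, interstitial macrophage and conventional dendritic cell lists had 0.72, 0.44 and -0.31. All these r include peritumoral 4. The monocyte list was higher in tumoral than in peritumoral arrays for 5 of its 5 genes, beside 41.7% of all genes, with 0 called. Its mean ran from 10.47 to 11.02 in tumoral and from 9.84 to 10.78 in peritumoral arrays, lowest in peritumoral 4, and its r with Mrc1 was 0.63. Ms4a4c and Plac8 of that list differed by 0.50 and 0.62 (limma, adjusted p = 0.253 and 0.377). The part of these cells in the Mrc1 value was not tested. Of the 5 highest Mrc1 arrays, 3 were at positions 3, 6, 9, 12 and 15, and 0 of the 5 lowest were.

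Il4ra, the receptor chain through which the type 2 cytokines act, hardly varied. It measured 11.10, 10.90, 11.06, 11.12, 11.08, 10.99, 11.03 and 11.07 in tumoral 1 to 8, and 10.72, 11.10, 10.97, 10.97, 11.15, 11.12, 11.04 and 11.06 in peritumoral 1 to 8. Peritumoral 1 was lowest, and the other 15 arrays lay between 10.90 and 11.15. Il4ra averaged 11.04 ± 0.07 in tumoral and 11.02 ± 0.14 in peritumoral arrays (SD, n = 8 each), a difference of 0.03 (limma, adjusted p = 0.900). Its sign turned under quantile normalization and cyclic loess. Of all genes, 92.3% had a larger standard deviation, against 0% for Retnla, 0.903% for Chil3, 1.76% for Cd209a, 10.4% for Mgl2, 11.7% for Clec10a and 41.3% for Mrc1.

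Taken by label, 0 of the 7 genes passed the test, against a background of 0% of 19938 genes called by limma with Benjamini-Hochberg adjustment. At an unadjusted p under 0.05, 1 of the 7 was found, Mrc1, beside 2292 of all genes (11.5%). Without tumoral 4, the array highest for Mrc1, 0 of the 7 were found (Mrc1 by limma, unadjusted p = 0.0521), and 0 with the replicate number as a block (Mrc1 by limma, unadjusted p = 0.0682). On average 5 of the 7 were higher and 2 lower in tumoral arrays, where 8311 genes (41.7%) were higher. Without peritumoral 4, Chil3 changed sign and 6 of the 7 were higher, beside 7905 of all genes. Their median difference was 0.13, and that of all genes was -0.02. In 0 of the 7 did the labels separate without overlap, as they did in 17 genes (0.0853%). By array order, 2 of the 7, Retnla and Cd209a, had their 5 lowest values at positions 3, 6, 9, 12 and 15, the share over all genes being the 3.6% given above. The 7 genes did not share 1 pattern: Retnla, Cd209a, Mgl2 and Clec10a had similar orders of arrays, and Chil3, Mrc1 and Il4ra had other orders.

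**Figure D2:**
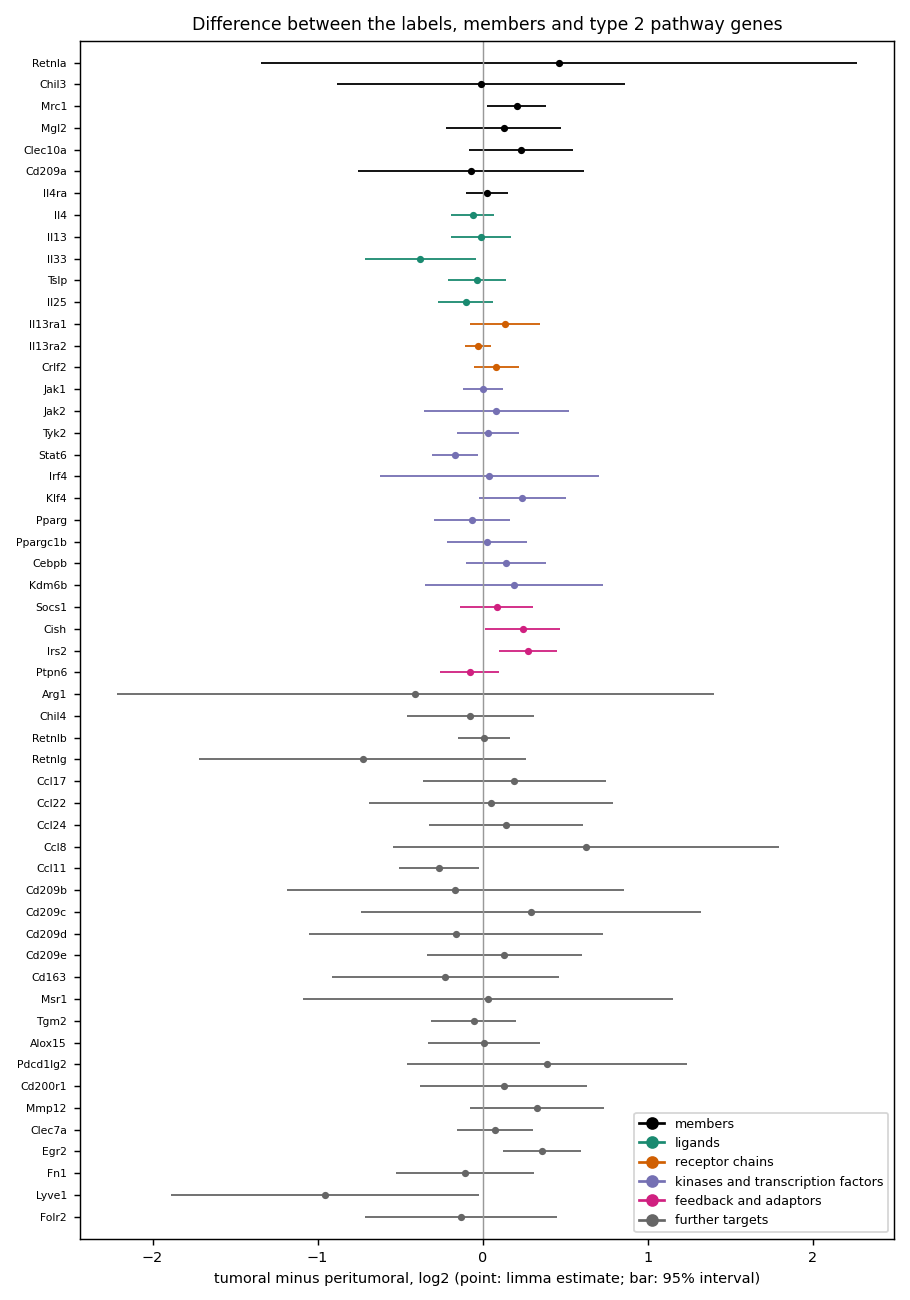
Tumoral minus peritumoral difference on the log2 scale (x axis) for the 7 genes (black, top) and 47 further type 2 pathway genes, coloured by role, with limma estimates as points and 95% intervals as bars. Retnla and Arg1 have the widest intervals shown, and 0 of these genes passed over all genes tested.

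The genes whose order of arrays was most like that of each member were found by Pearson correlation over the 16 arrays, as a description without a test. For Retnla they were Aldh1a2 (r = 0.98), which encodes a retinaldehyde dehydrogenase that makes retinoic acid in dendritic cells, Ankrd44 (0.97) and Glcci1 (0.97). For Cd209a they were the neighbouring lectin genes Cd209d (0.98) and Cd209b (0.98) and Cldn1 (0.98), a tight junction protein gene. All 6 of these genes had their 5 lowest values at positions 3, 6, 9, 12 and 15. For Mgl2 they were Ccdc88a (0.96), F2rl2 (0.96) and Kmo (0.95), a kynurenine hydroxylase gene. For Clec10a they were Il13ra1 (0.95), which encodes the chain that pairs with the product of Il4ra, Plbd1 (0.95) and the transcription factor gene Irf5 (0.94). Aldh1a2 averaged 8.76 in tumoral and 8.56 in peritumoral arrays, and Il13ra1 averaged 10.73 in tumoral and 10.59 in peritumoral arrays, neither past the test (limma, adjusted p = 0.920 and 0.624). The difference of Il13ra1, 0.13, was 0.06 without peritumoral 4.

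The other members had different companions. For Mrc1 they were C3ar1 (0.95), the receptor gene of complement C3a, Ms4a7 (0.94) and Clec4a3 (0.93), and for C3ar1 the 5 highest arrays were those at positions 3, 6, 9, 12 and 15. For Chil3 they were Amy1 (0.83), Chil4 (0.82), which encodes the near relative Ym2, and Plet1 (0.81). Chil4 and Chil3 are similar enough in sequence that their probe sets may share signal. For Il4ra the closest genes reached only 0.79 (Rhbdf2, Mcoln2 and Fem1b). Without the 2 arrays farthest from the median of the member, r fell to between 0.61 and 0.62 for the genes nearest Il4ra and to between 0.64 and 0.74 for those nearest Chil3.

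The rest of the type 2 pathway was examined through 52 genes grouped by role, of which 47 had a probe set of their own and Il2rg, Il1rl1, Jak3, Ear2 and Ear11 were not used here. Limma called 0 of the 47, with 27 higher and 20 lower in tumoral arrays and a median difference of 0.027. Of all genes, 41.7% were higher. At an unadjusted p under 0.05 there were 7, beside the 11.5% of all genes. Without peritumoral 4, 26 of the 47 were higher and 21 lower, with a median difference of 0.017. With all arrays, all 5 ligand genes had the lower mean in tumoral arrays, beside 11627 of all 19938 genes. Without peritumoral 4 this held for 4 of 5 ligand genes, beside 12033 of all genes. Il4, Il13, Tslp and Il25 differed by -0.06, -0.01, -0.04 and -0.10, or by -0.03, -0.02, 0.02 and -0.13 without that array, and Il33, the alarmin gene, by -0.38, with peritumoral 4 highest at 6.66 (limma, adjusted p = 0.385), or by -0.23 without that array. Probe set detection could not be examined, so it is not known which ligand values stand above background. The basophil and mast cell list, cells that can supply interleukin-4, ran from 4.81 to 5.24 in tumoral and from 4.93 to 5.89 in peritumoral arrays. The eosinophil list ran from 5.73 to 6.12 in tumoral and from 5.93 to 6.26 in peritumoral arrays.

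Tumoral means exceeded peritumoral means for 2 of 3 receptor chain genes, and 0 were called. Tumoral means exceeded peritumoral means for 8 of 10 kinase and transcription factor genes, and 0 were called. Over all genes, 41.7% had the higher mean in tumoral arrays. Stat6, the factor that carries the signal, averaged 10.26 ± 0.12 in tumoral and 10.43 ± 0.13 in peritumoral arrays (SD, n = 8 each), a difference of -0.17 (limma, adjusted p = 0.355). Its highest array was peritumoral 1 at 10.57 and its lowest tumoral 1 at 10.09. In this group 4 genes had their 5 lowest values at positions 3, 6, 9, 12 and 15, as Retnla and Cd209a did: Jak2, a kinase gene, Irf4 and Pparg, transcription factor genes, and Kdm6b, a histone demethylase gene. Irf4 measured 9.17, 10.46, 10.20, 9.005, 10.66, 10.58, 9.39 and 10.55 in tumoral 1 to 8. It measured 10.56, 10.35, 9.002, 9.88, 10.19, 8.77, 10.66 and 10.28 in peritumoral 1 to 8. Its 5 low arrays, at 9.39 or less, were again split over both labels, and its difference between them was 0.04 (limma, adjusted p = 0.978). Among feedback and adaptor genes, Irs2, an insulin and interleukin-4 receptor adaptor, differed by 0.28 and Cish, a STAT-induced inhibitor, by 0.24 (limma, adjusted p = 0.256 and 0.409).

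The further targets went in both directions across the arrays. Arg1, the arginase gene that is another classical type 2 marker in mice, had the second largest standard deviation of all genes, 1.86, and an order nearly opposite to Retnla. Arg1 measured 10.18, 6.29, 8.23, 9.62, 6.35, 8.54, 10.22 and 6.16 in tumoral 1 to 8. It measured 6.75, 9.25, 10.98, 6.25, 10.57, 10.62, 5.94 and 8.49 in peritumoral 1 to 8. Its r with Retnla over 16 arrays was -0.86, and 4 of its 5 highest arrays were at positions 3, 6, 9, 12 and 15. The exception was peritumoral 5, high for Arg1 at 10.57 with Retnla at 9.64. Peritumoral 4 was low for Arg1 at 6.25 with Retnla at 10.97. The arrays outside those positions were not level. At positions 1, 4, 7, 10, 13 and 16, peritumoral 4 among them, Arg1 lay between 5.94 and 6.75 and Retnla between 10.97 and 12.30. At positions 2, 5, 8, 11 and 14, peritumoral 5 among them, Arg1 lay between 8.23 and 10.57 and Retnla between 9.64 and 11.51. These sets too were singled out after the values were seen. Between the labels Arg1 differed by -0.41 (limma, adjusted p = 0.893), or by -0.75 without peritumoral 4. The scavenger receptor gene Msr1, the metalloelastase gene Mmp12 and Cd200r1, the receptor gene for CD200, had their 5 highest values exactly at those positions, with Msr1 from 11.57 to 11.91 there and from 8.66 to 11.21 elsewhere.

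**Figure D3:**
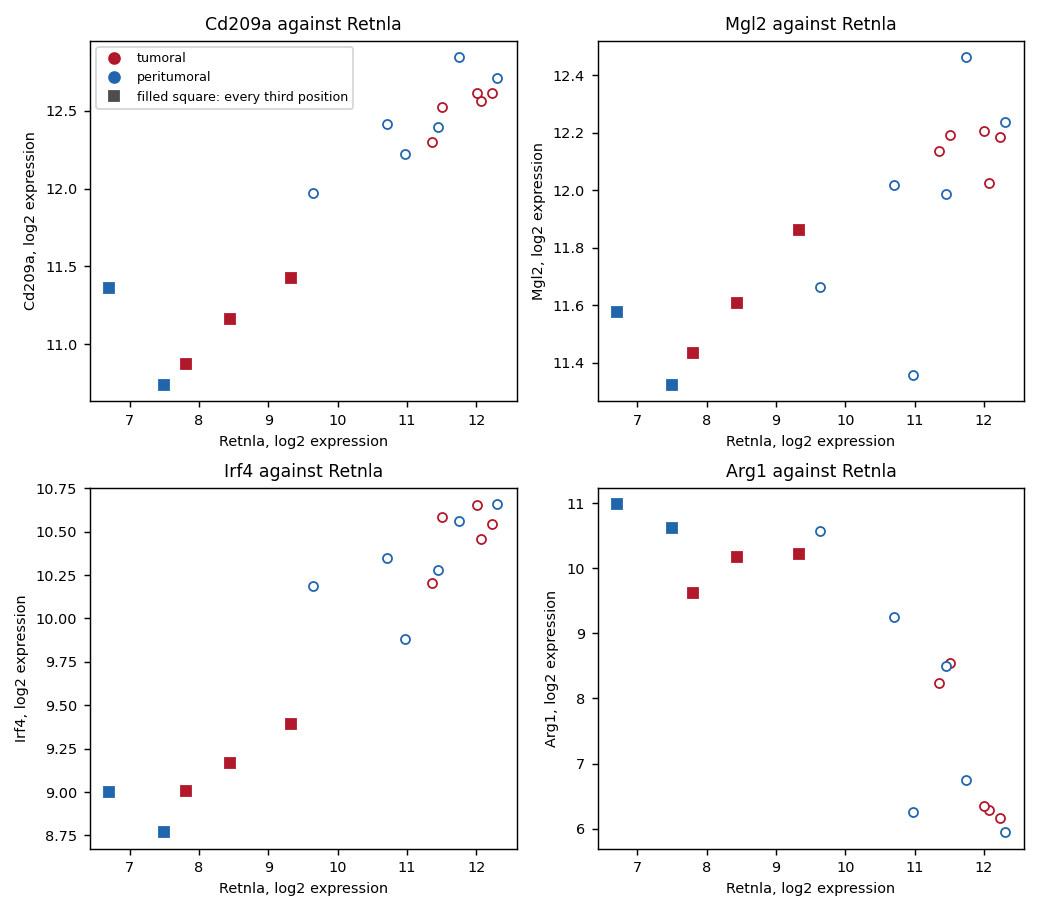
Log2 expression of Cd209a, Mgl2, Irf4 and Arg1 (y axes) against Retnla (x axis), 1 point per array, red for tumoral and blue for peritumoral, with filled squares for deposited positions 3, 6, 9, 12 and 15. The squares, from both labels, lie at Retnla values up to 9.33, at the low end of Cd209a and Irf4 and near the high end of Arg1.

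Other targets shared the order of Retnla. The chemokine genes Ccl17 and Ccl22, whose products draw CCR4-bearing T cells, the lectin genes Cd209b, Cd209c and Cd209d, and the haemoglobin scavenger receptor gene Cd163 had their 5 lowest values at positions 3, 6, 9, 12 and 15. Ccl22 ran from 10.35 to 11.30 on those arrays and from 11.68 to 12.39 on the others. Cd209b ran from 5.81 to 6.61 on those arrays and from 7.23 to 9.05 on the others. In all, 10 of the 47 pathway genes had their 5 lowest values at these positions and 3 had their 5 highest there, where the shares over all genes are 3.6% and 8.37%. The resistin relatives of Retnla followed it less closely or not at all. Retnlg, a granulocyte transcript, was highest in peritumoral 4 at 9.08 and had an r of 0.47 with Retnla. Still, 4 of its 5 lowest values were at these positions, with 5.45 to 6.38 there and 6.37 to 9.08 elsewhere. Retnlb stayed between 4.69 and 5.24 throughout. Egr2, a transcription factor gene, differed by 0.36 between the labels (limma, adjusted p = 0.266), and the hyaluronan receptor gene Lyve1 differed by -0.96 with its highest value, 11.39, in peritumoral 4 (limma, adjusted p = 0.425), or by -0.57 without that array.

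**Figure D4:**
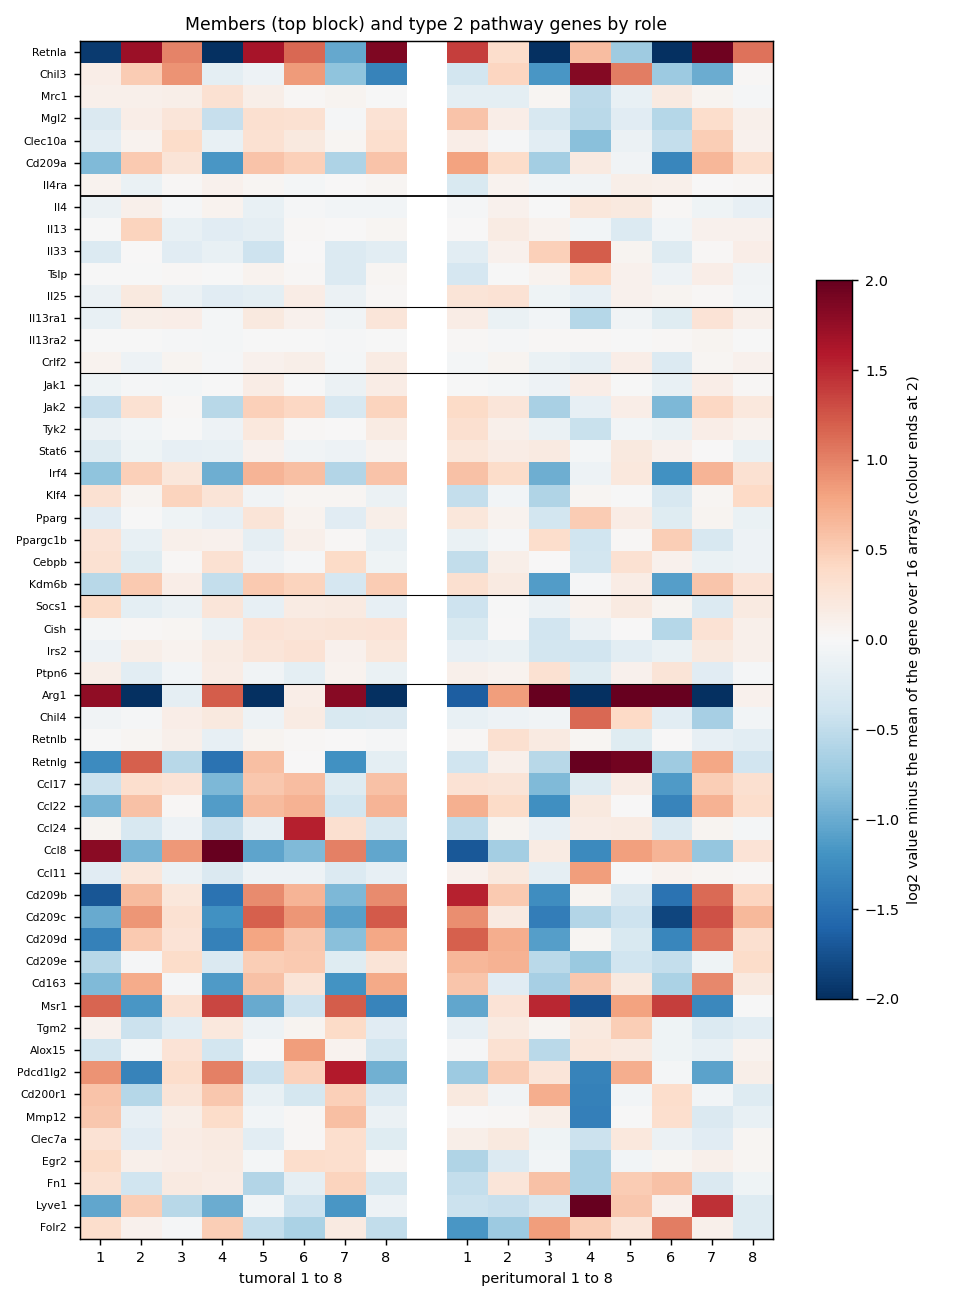
Log2 value minus the mean of each gene over 16 arrays (colour, ending at 2) for the 7 genes (top block) and 47 pathway genes by role (blocks below: ligands, receptor chains, kinases and transcription factors, feedback and adaptors, further targets), in tumoral 1 to 8 (left) and peritumoral 1 to 8 (right). Retnla and Arg1 show the strongest and nearly opposite colours, and Il4ra, Stat6 and the ligand genes stay pale on most arrays.

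Several lists of cell type markers moved with Retnla and Cd209a across the arrays, and others did not. Over all genes, 3.6% had their 5 lowest values at positions 3, 6, 9, 12 and 15, and 8.37% had their 5 highest there. Of 6 conventional dendritic cell genes, 5 (Flt3, Zbtb46, Ccr7, Irf4 and Dpp4) had their 5 lowest values at positions 3, 6, 9, 12 and 15, and Sirpa had its 5 highest there. The mean of that list ran from 9.64 to 10.73 in tumoral and from 9.51 to 10.71 in peritumoral arrays. On the 5 arrays it lay between 9.51 and 9.97, and on the others between 10.16 and 10.73. Of 7 interstitial macrophage genes other than Mrc1, the complement genes C1qa, C1qb and C1qc had their 5 highest values on the 5 arrays. Mertk and Folr2 had 4 of their 5 highest there and Cx3cr1 had 3, whereas Lyve1 had 3 of its 5 lowest there. The list mean overlapped, from 10.51 to 10.92 on the 5 arrays and from 10.20 to 10.59 on the others. By label it ran from 10.32 to 10.81 in tumoral and from 10.20 to 10.92 in peritumoral arrays. Lung epithelial genes were lowest on the same arrays for 4 of 6, with a list mean from 7.22 to 7.43 there and from 8.11 to 10.42 elsewhere, and from 7.23 to 8.55 in tumoral and 7.22 to 10.42 in peritumoral arrays by label. Among them Scgb1a1, the club cell secretory protein gene, lay between 7.25 and 7.82 on the 5 arrays and between 10.24 and 13.06 on the others. The B cell list lay between 6.47 and 6.81 on the 5 arrays and between 7.03 and 9.35 on the others. Its genes Cd79a and Pax5, and Siglecf, Ltf and Cd3d of other lists, also had their 5 lowest values there. The monocyte, basophil and mast cell, endothelium, fibroblast and NK cell lists had 0 such genes. No marker has a value of 0 on this scale. The part of cell composition in the Retnla and Cd209a values was not tested.

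**Figure D5:**
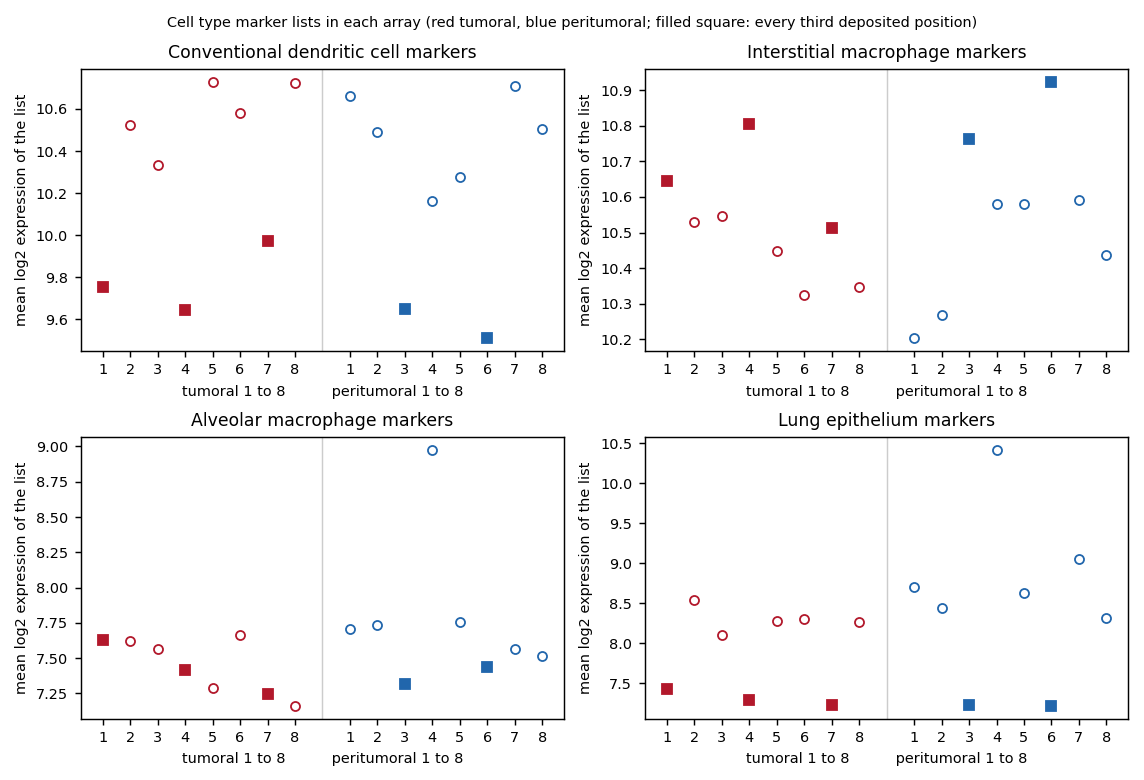
Mean log2 expression (y axis) of the conventional dendritic cell, interstitial macrophage, alveolar macrophage and lung epithelium lists in tumoral arrays 1 to 8 (red, left) and peritumoral arrays 1 to 8 (blue, right), with filled squares for deposited positions 3, 6, 9, 12 and 15. The squares are lowest for dendritic cell (9.51 to 9.97) and epithelial genes (7.22 to 7.43), and peritumoral 4 is highest for the alveolar macrophage (8.97) and epithelial (10.42) lists.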

How the data were processed

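Total RNA of the sorted cells was amplified and biotin-labelled with Affymetrix whole-transcript kits, per the labels' protocols. The authors deposited 1 value table of 28853 probe sets by 16 arrays, with values between 2.31 and 14.33, taken here as log2 expression. The log base and the steps of background correction and normalization are unstated in the labels and the table. Detection calls and scan batches were not analysed here. Array medians ran from 6.75 to 6.95, and the number of arrays limits the precision. The lowest and highest correlation between 2 arrays over all genes were 0.934 and 0.997, so no 2 arrays were identical.

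Probe sets were named from the platform annotation: 21789 have 1 symbol, 1621 several and 5443 none. Those with several were left out. The brightest probe set of each gene was kept, leaving 19938 genes without a filter on dim values. Groups follow the titles. limma 3.58.1 in R 4.3.3 compared them as tumoral minus peritumoral, with 14 residual degrees of freedom and Benjamini-Hochberg adjustment over 19938 genes at a threshold of 0.05. It was tested on simulated data with independent noise for each gene. Those data lack the array order that many genes share here, so they do not show how limma behaves with it. Alternatives were a replicate block, other normalizations, filters, variance models and left-out arrays.

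The members, pathway genes and marker lists were chosen with earlier results of these data known. The genes named were the members, the pathway list and, for each member, the 3 genes with the highest Pearson correlation. Marker list values are means of log2 values without the members. Some genes of those lists are not reported here.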

Additional observations from a re-analysis of the deposited data

Results flagged for a closer look

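Among the 71 genes of the members, the pathway list and the closest companions, 12 of 142 groups of 8 arrays held 1 array whose gap to the nearest exceeded the 0.526 of the range that Dixon's test allows. Chance gives about 1 in 20. For the members, Mrc1 in tumoral 4 measured 11.76, above 11.57 in the next array, and Il4ra in peritumoral 1 measured 10.72, below 10.97 in the next. Peritumoral 4 held 4 of the 12: Ccl11 at 7.93, Mmp12 at 10.60, C3ar1 at 10.96 and Clec4a3 at 10.19. Tumoral 2 was high for Il13 (7.26) and Ccl11 (7.32), tumoral 6 was high for Ccl24 (9.26), tumoral 7 was low for Tslp (4.32), and tumoral 4 was low for Il13ra2 (3.44) and Retnlb (4.76). Il13ra2 had the smallest standard deviation of all 19938 genes and spanned 0.094 in all, and 98.5% of genes had a higher mean.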

How the results depend on the processing

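Across every alternative run, 0 of the 7 members and 0 of the 47 pathway genes passed the threshold. The count over all genes was 0 to 128 when single arrays were left out, 128 without peritumoral 7 and 20 without peritumoral 8, and 88 without peritumoral 4 and 7. It was 0 under the replicate block, the other normalizations, the filter, the variance models, array weights, averaged probe sets and the rank-sum test, with 2292 genes at an unadjusted p under 0.05 in limma. Mrc1, Mgl2 and Clec10a kept their direction under all 25 alternatives, with Mrc1 from 0.14 to 0.25. Differences near 0 changed sign. Il4ra was -0.0217 with quantile normalization and -0.0226 with cyclic loess. Chil3 was 0.0340 with array median centring and 0.19 with array weights. Without peritumoral 4 and 7, Chil3 was 0.13 and Cd209a 0.0567. With single arrays left out, Retnla ran from -0.0235 to 0.86, Chil3 from -0.18 to 0.25, Cd209a from -0.26 to 0.0909 and Il4ra from -0.0142 to 0.0485. The cause was not tested. Same-numbered arrays of the 2 labels had correlations of their deviations from -0.56 to 0.29, and 3 of 8 exceeded 0.1. The arrays often low or high together, tumoral 1, 4 and 7 and peritumoral 3 and 6, carry different numbers in the 2 labels. Whether the numbers pair the samples therefore cannot be decided from these correlations. With the replicate block the difference of Mrc1 was 0.20 (limma, adjusted p = 0.523), 0 genes were called, and 0 of the 7 members had an unadjusted p under 0.05. Of 8 tumoral arrays 1 correlated best with its own number.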
